A study of Rattus norvegicus with 20 samples.

Results

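miR-153 is a microRNA (miRNA) that the rat makes from a single hairpin in the reference used here. Both arms of that hairpin, rno-miR-153-3p and rno-miR-153-5p, were read in the adBNST, the anterodorsal part of the bed nucleus of the stria terminalis, which belongs to the extended amygdala. These were 2 of the 617 miRNAs with reads and 2 of the 500 with enough reads to be tested. They were taken by name, and they were singled out because their levels were lower after social isolation in these same libraries. The comparison of housing is therefore given for miR-153 as a description with no test, and miR-153 is tested only between the sexes. Other miRNAs set beside it are tested in the comparison of housing too. The rats were Sprague-Dawley, weaned on postnatal day 21 and then kept for 6 weeks either alone (socially isolated, SI) or with same-sex littermates (group housed, GH, the controls). At 9 weeks of age they were tested in the elevated plus maze and killed, and 1 small RNA library was made from the adBNST punches of each rat, so that GH and SI rats of both sexes made up 4 groups of 5. The females sequenced had been selected by the authors for high RNA integrity and for a spread of estradiol levels, and GH rats of 1 cage are littermates, which the labels do not identify.

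miRNAs guide Argonaute proteins to messenger RNAs, mainly through the seed, bases 2 to 8 of the mature strand, and they lower the output of the transcripts that they bind. miR-153 is enriched in the brain and in neuroendocrine cells, and its known targets include the messenger RNAs of the presynaptic proteins alpha-synuclein and SNAP-25. Its gene lies inside Ptprn2, which encodes a transmembrane protein of dense-core vesicles, the organelles that store neuropeptides and hormones.

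These sequences are shown because every later result counts reads of these strands or of their variants. They were taken from the RefSeq annotation of the assembly GRCr8, in which both arms were matched by name. The hairpin is 87 bases long and lies at chr6:144306594-144306680 on the plus strand. Capitals in the hairpin mark the 2 mature strands, and capitals in the mature strands mark the seed.
Mir153 hairpin: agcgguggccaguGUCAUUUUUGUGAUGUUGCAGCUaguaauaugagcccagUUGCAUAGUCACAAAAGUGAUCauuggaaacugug
rno-miR-153-5p, chr6:144306607-144306629: gUCAUUUUugugauguugcagcu
rno-miR-153-3p, chr6:144306646-144306667: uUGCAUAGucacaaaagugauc
miR-448-3p, on chromosome X: uUGCAUAUguaggauguccca
In the predicted fold of the hairpin, which had a free energy of −42.3 kcal/mol, 19 of the 22 bases of the 3p strand were paired with the 5p strand. The annotation placed the gene within Ptprn2 and within the long non-coding RNA LOC120093227, and the nearest other miRNA gene on the chromosome was Mir3545. The seeds of both arms differ from each other. miR-448-3p is shown because it was the only other miRNA in the reference that shared bases 2 to 7 with either arm, and its seed as a whole, bases 2 to 8, was not the same. None of the reads of miR-153 was assigned to a second miRNA.

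A library held from 3428930 to 11383055 miRNA reads. The median depth was higher in SI than in GH rats of both sexes (7290553 against 4983188 reads in males and 6998674 against 5276646 in females), so levels are given in RPM, the reads of a miRNA per 1000000 miRNA reads after scaling with edgeR's TMM factors. The miRNAs that mark neurons (miR-124-3p, miR-9a-5p, and miR-128-3p) summed to between 82243 and 186863 RPM in every library. The SI female I16F stood apart from the other rats, and its values are given separately where results rest on it. The sexes of 2 SI libraries, I17M and I17F, are the reverse in their file names of what the labels say. Both were placed by their labels, and values with the 2 libraries exchanged are given where they differ in direction.

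miR-153-3p was the more abundant arm, with 20650 reads over the 20 libraries against 2233 of miR-153-5p. In 19 of the rats it held between place 122 and place 251 among all miRNAs ordered by reads, and in I16F it held place 349. In GH males the level of miR-153-3p was 231 RPM in G16M, 152 in G19M, 143 in G18M, 148 in G20M, and 164 in G21M. In SI males it was 82.5 in I15M, 84.3 in I19M, 111 in I22M, 81.5 in I17M, and 48.1 in I20M. The highest SI male was thus below the lowest GH male, and GH males lay close together apart from G16M. Over all miRNAs tested, 9.2% had every SI male below every GH male, which is the background for this separation.

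In GH females miR-153-3p was at 252.2 RPM in G15F, 239 in G12F, 548 in G16F, 127 in G13F, and 634 in G17F. In SI females it was at 118.5 in I14F, 141 in I10F, 52.6 in I17F, 50.5 in I12F, and 8.06 in I16F, where only 42 reads were counted. G16F and G17F were the highest of all 20 rats, and 4 of the 5 SI females were below every GH female. The exception was I10F, which exceeded G13F alone. In females, 1.6% of the miRNAs tested had every SI rat below every GH rat.

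**Figure D1:**
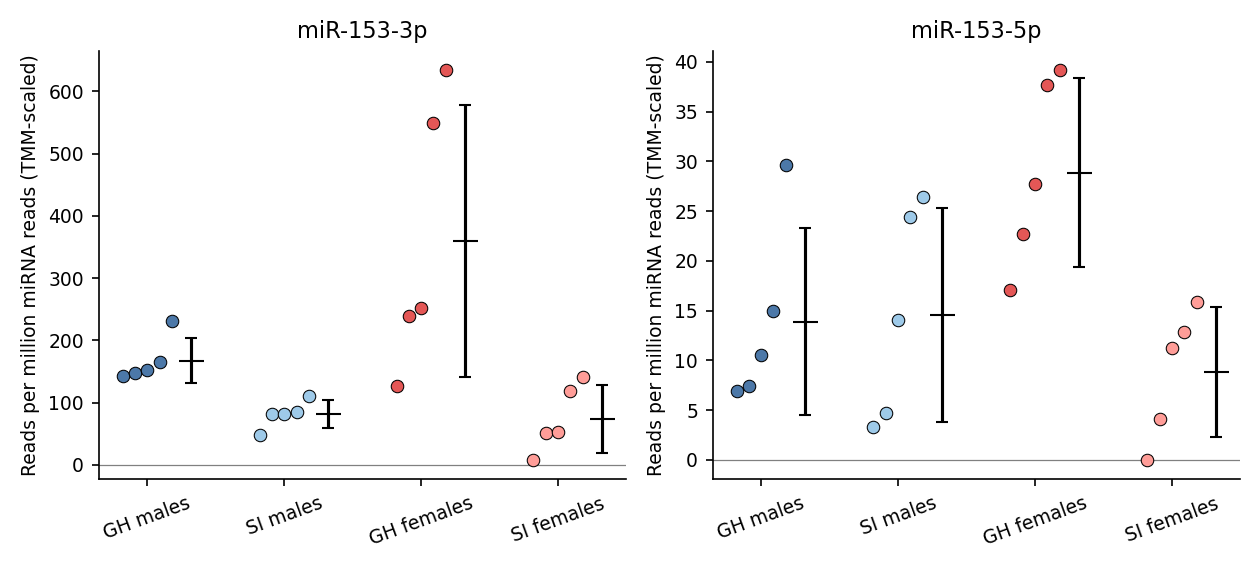
Levels in RPM (TMM-scaled, linear axes) of miR-153-3p and miR-153-5p. Each point is 1 rat, the horizontal bar is the group mean, and the whiskers are 1 SD (n = 5 rats per group). All SI males lie below all GH males for the 3p arm but not for the 5p arm, and GH females span the widest range of the 3p arm, from 127 to 634.

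The mean level of miR-153-3p was 168 ± 36.3 RPM in GH males and 81.5 ± 22.3 in SI males (SD, n = 5), so that SI males held 48.6% of the GH mean. In females the means were 360 ± 219 in GH rats and 74.1 ± 54.4 in SI rats (SD, n = 5), and SI females held 20.6% of the GH mean. On the log2 scale the fitted difference of SI from GH was −1.04 (SE 0.49) in males and −2.28 (SE 0.51) in females. Without I16F the difference in females was −1.98. From highest to lowest mean the groups thus ran GH females, GH males, SI males, and SI females, and the ranges of the first pair overlapped, as did those of the last pair. Ordered from the lowest difference among the 500 miRNAs, miR-153-3p held place 65 in males and place 19 in females, where the median over all 500 was −0.01 and −0.13. With edgeR's adjusted p under 0.05 as the rule, 4.0% of the miRNAs were called in males and 0.4% in females, and the selection of miR-153 used this contrast, so nothing is read from its own call. The difference between the sexes in this housing effect, females minus males, was −1.24 on the log2 scale (SE 0.69). It was −0.88 without I16F, and −0.70 with I16F left out and the I17 libraries exchanged.

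The other arm, miR-153-5p, is the partner strand of the same hairpin and is read less often in most tissues. In GH males it was at 14.98, 10.5, 6.91, 29.7, and 7.43 RPM in G16M, G19M, G18M, G20M, and G21M. In SI males it was at 24.4, 26.4, 4.67, 3.26, and 14.03 in I15M, I19M, I22M, I17M, and I20M. The 2 groups of males overlapped over most of their range, and their means were 13.9 ± 9.37 and 14.5 ± 10.8 (SD, n = 5). The fitted log2 difference of SI from GH was 0.07 (SE 0.78), with a range of −0.26 (without I19M) to 0.55 (without G20M) when 1 rat was left out.

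In GH females miR-153-5p was at 37.6, 39.2, 27.7, 17.1, and 22.7 RPM in G15F, G12F, G16F, G13F, and G17F. In SI females it was at 11.3, 12.8, 4.14, 15.8, and 0 in I14F, I10F, I17F, I12F, and I16F. Every SI female was below every GH female, which was also found for 1.6% of all miRNAs tested. No read of the arm was counted among 6255123 miRNA reads in I16F, which allows up to 0.576 RPM (3 counts, counting error only). Sequences of the arm read once would be absent from these counts, so the limit could be higher. The group means were 28.9 ± 9.49 in GH and 8.81 ± 6.54 in SI females (SD, n = 5), so SI females held 30.5% of the GH mean. The log2 difference was −1.71 (SE 0.80), and −1.36 without I16F. The adBNST punch holds many cell types, and in such bulk tissue fewer cells that make miR-153 and less miR-153 per cell cannot be told apart.

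Sex was a comparison that did not enter the selection. Among GH rats, miR-153-3p was higher in females by 1.10 on the log2 scale (SE 0.49, 95% confidence interval 0.09 to 2.11), and 4 of the 5 GH females exceeded every GH male whereas G13F was below all of them. This difference did not pass the test over all miRNAs (edgeR quasi-likelihood test, Benjamini-Hochberg adjusted p = 0.996). In this contrast edgeR called none of the 500 miRNAs (0.0%), with 12 (2.4%) at an unadjusted p under 0.05, and DESeq2 called 5 of 586 (0.853%), with an adjusted p of 0.988 for miR-153-3p. miR-153-5p was higher in GH females by 1.05 (SE 0.79, 95% confidence interval −0.58 to 2.68), with an adjusted p of 0.996 by edgeR.

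Among SI rats the sexes were close in the mean of miR-153-3p, and the difference of females from males was −0.13 (SE 0.48, 95% confidence interval −1.14 to 0.87, edgeR adjusted p = 0.955). The interval leaves room for differences of either direction, and the sign turned with the 2 I17 libraries exchanged (0.08) or without I16F (0.21). miR-153-5p differed by −0.72 (SE 0.79, 95% confidence interval −2.35 to 0.90, edgeR adjusted p = 0.885). edgeR called none of the 500 miRNAs in this contrast (0.0%), with 50 (10%) at an unadjusted p under 0.05, and DESeq2 called 5 of 586 (0.853%).

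The balance of the arms varied widely between rats of the same group. Per 100 reads of miR-153-3p, reads of the 5p arm numbered 6.49, 6.89, 4.85, 20.1, and 4.52 in the GH males G16M, G19M, G18M, G20M, and G21M. In the SI males I15M, I19M, I22M, I17M, and I20M they numbered 29.5, 31.3, 4.21, 3.99, and 29.2. SI males thus fell into 3 rats with a high and 2 with a low share of the 5p arm, while 4 of the 5 GH males had a low share. In GH females the number ran from 3.59 (G17F) to 16.4 (G12F) with a median of 13.5, and in SI females from 0 (I16F) to 31.3 (I12F) with a median of 9.08. The mean log2 ratio of the arms was −3.46 ± 1.01 in GH females and −3.77 ± 0.85 in GH males (SD, n = 5), a difference of 0.31 that was within the spread between rats (exact permutation test, two-sided, p = 0.57, adjusted p = 1 over 12 tests). In SI rats it was −3.51 ± 1.33 in females and −2.86 ± 1.54 in males (SD, n = 5; exact permutation test, two-sided, p = 0.51, adjusted p = 1). Counts of the 5p arm were between 0 and 306 reads per library, so the ratio rests on few reads in several rats.

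**Figure D2:**
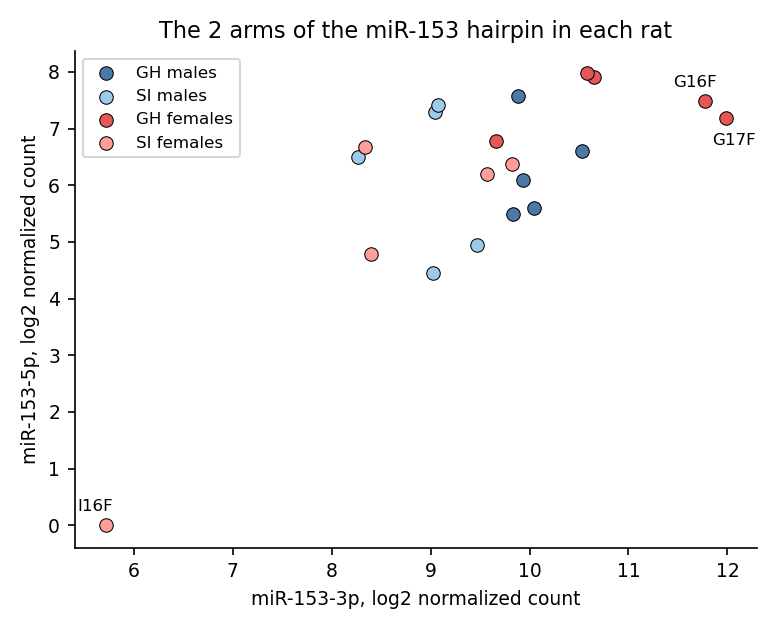
Log2 normalized counts (counts scaled to the mean effective library size, plus 1) of miR-153-3p on the horizontal and miR-153-5p on the vertical axis, 1 point per rat, coloured by group. The GH females G16F and G17F lie far to the right without the highest 5p levels, and the SI female I16F lies at the lower left, with a 5p value of 0.

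Over the 20 rats the 2 arms had a Pearson r of 0.74 on this log2 scale, and of 0.45 over the 19 rats without I16F. For deviations from the group means, r was 0.64, and 0.24 without I16F. By levels over the 20 rats, 62 of the other 499 miRNAs tested were closer to miR-153-3p than its own partner arm, which held place 63. By deviations from the group means the partner arm held place 78. The rats share their libraries and scaling in all such comparisons, so these values are descriptions.

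The reads of miR-153-3p were spread over 73 distinct sequences, called isomiRs where they depart from the reference strand. Sequences in only 1 library numbered 34 and held 1.76% of the reads. Of all sequences, 9 had at least 10 reads in at least 5 libraries and held 94.8% of the reads. The forms with at least 2% of the reads of the arm are shown, in DNA letters as they were counted, because they show where the strand ends. Capitals mark the seed of the reference strand.
reference form, 22 bases: tTGCATAGtcacaaaagtgatc
2 bases longer: tTGCATAGtcacaaaagtgatcat
1 base longer: tTGCATAGtcacaaaagtgatca
1 base shorter: tTGCATAGtcacaaaagtgat
2 bases shorter: tTGCATAGtcacaaaagtga
The extra bases of both longer forms match the hairpin. The reference form held 48.3% of the reads and was found in all 20 libraries. The form 2 bases longer held 14.3% and the form 1 base longer 12.1%, and the forms shorter by 1 and by 2 bases held 12.01% and 2.50%. In I16F the reference form was the single sequence of this arm.

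The reference form of miR-153-3p was counted at 77.7 ± 18.9 RPM in GH males and 42.8 ± 14.3 in SI males (SD, n = 5). In GH females it was counted at 174 ± 123 and in SI females at 37.8 ± 30.7 (SD, n = 5). The form 2 bases longer was at 22.9 ± 13.2 against 12.8 ± 6.37 in males and at 47.1 ± 16.1 against 11.3 ± 7.53 in females. The form 1 base longer was read in every GH rat, in 2 of 5 SI males, and in 4 of 5 SI females. Its mean level was 25.7 ± 4.12 in GH and 7.44 ± 14.7 in SI males, and 44.1 ± 18.05 in GH and 6.48 ± 5.59 in SI females (SD, n = 5). The form 1 base shorter was also read in every GH rat, and in 4 of 5 SI males and 3 of 5 SI females. On average SI libraries held fewer reads of miR-153-3p and fewer distinct sequences of it. Over all reads of the arm, the mean number of sequences was 6.4 in both SI groups, 12.8 in GH males, and 24.2 in GH females.

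The 3′ end was examined among the miR-153-3p reads with neither a mismatch nor an added base. It lay at the reference position in 55.3 ± 15.2% (SD, n = 20 rats) and 2 bases beyond it in 17.2 ± 11.1%. It lay 1 base beyond that position in 11.9 ± 9.15% and 1 base before it in 10.7 ± 7.78%. Longer reads took 31.9 ± 3.48% in GH males, 27.4 ± 15.6% in SI males, 33.1 ± 13.5% in GH females, and 24.5 ± 16.9% in SI females (SD, n = 5). GH males were the most uniform group, between 27.8% and 36.8%, whereas SI males ran from 10.9% in I19M to 45.0% in I20M and GH females from 20.5% in G16F to 51.5% in G15F. Reads without the last 3 bases of the reference, looked at after the values were seen, made up 2.58 ± 1.63% in GH males, 6.19 ± 6.92% in SI males, and 0.70 ± 0.66% in GH females (SD, n = 5), and none was found in SI females. Between SI females and SI males this form had an edgeR adjusted p of 0.352.

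**Figure D3:**
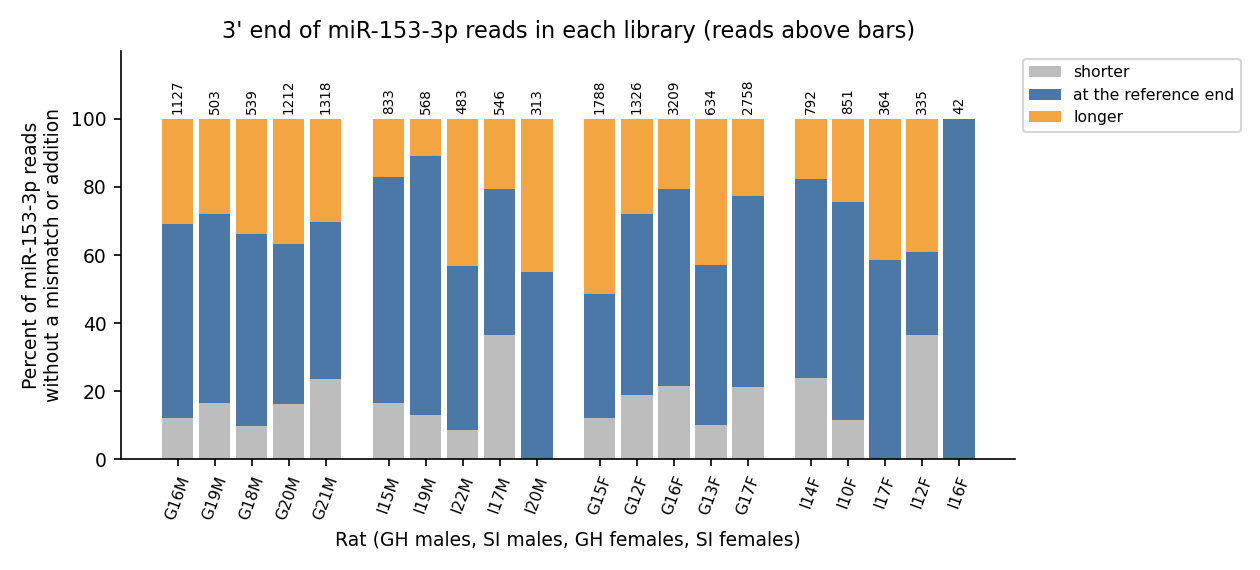
Percent of the miR-153-3p reads of each rat (reads with no mismatch and no added base) that end before, at, or beyond the 3′ end of the reference strand, as stacked bars from 0 to 100, with the number of reads above each bar. The GH males resemble one another, with 27.8% to 36.8% longer reads. GH females range from 20.5% (G16F) to 51.5% (G15F). The SI rats, with fewer reads on average, range from 0% (I16F, 42 reads) to 45.0% (I20M).

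The 5′ end sets the seed, and it was more uniform than the 3′ end. Of the miR-153-3p reads without a mismatch or an added base, 96.9 ± 2.99% began at the reference base (SD, n = 20 rats), and 633 reads, or 2.97 ± 2.85%, began 1 base later. Such reads carry GCAUAGU in place of UGCAUAG at bases 2 to 8. Reads with a changed 5′ end, but neither a mismatch nor an added base, were taken as a share of all miR-153-3p reads. In G15F, 83 reads with a later start and added bases are thus left out. The share was 5.22 ± 3.56% in GH males, from 0.894% in G20M to 10.4% in G16M (SD, n = 5). In GH females it was 2.15 ± 1.62% (SD, n = 5). The difference did not exceed the spread between rats (exact permutation test, two-sided, p = 0.13, adjusted p = 1 over 12 tests). In SI rats the shares were 2.11 ± 1.99% in males and 2.24 ± 3.33% in females (SD, n = 5).

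Each read of miR-153-3p was counted in 1 class, with mismatches taken first, then additions, then changed 5′ ends. Over all reads, 43.0% had a changed 3′ end only and 3.31% a changed 5′ end without an addition or a mismatch. Nucleotides added that the hairpin does not encode were found in 2.75%, and a mismatch in 2.62%. The shares of the reference form, of changed 3′ ends, of additions, and of mismatches were compared between the sexes within GH and within SI rats, together with the 5′ ends and the arm ratio. All 12 tests had an adjusted p of 1 (exact permutation tests, two-sided, 5 against 5 rats, for which the smallest possible p is 0.0079). The most frequent mismatch was C10T, with the reference base first and positions counted from the 5′ end, with 173 reads in 7 libraries (0.838% of the arm). The next was G17T, with 71 reads in 1 library. Both lie outside the seed. The mismatch within the seed with the most reads was A7G, with 21 reads in 4 libraries. In the libraries as a whole between 1.94% and 2.42% of the miRNA reads carried a mismatch.

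miR-153-5p was found in 24 sequences, of which 17 were in 1 library and 2 had enough reads to be tested. Its forms with at least 2% of its reads are shown with the seed of the reference strand in capitals.
reference form, 23 bases: gTCATTTTtgtgatgttgcagct
1 base later start: TCATTTTtgtgatgttgcagct
T added at the 3′ end: gTCATTTTtgtgatgttgcagctt
1 base longer: gTCATTTTtgtgatgttgcagcta
3 bases later start and 3 bases longer: ATTTTtgtgatgttgcagctagt
The reference form held 75.1% of the reads of this arm, and the form that starts 1 base later held 6.90%. The forms with an added T and with 1 more base of the hairpin held 4.57% and 3.36%. The form that starts 3 bases later held 2.28%, all 51 reads of it in the GH female G15F. The 3′ end of this arm was at the reference position in 93.3 ± 16.9% of the reads with neither a mismatch nor an addition (SD, n = 19 rats with reads). For miR-153-3p this was 55.3 ± 15.2% (SD, n = 20 rats). Among the rats the share of the 5p arm ran from 30.4% to 100%. Its few reads per library, with sequences read once absent, limit this comparison.

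The 11 forms of miR-153 that could be tested were compared between the sexes in a fit over 10290 isomiRs. In GH rats the reference form of miR-153-3p was higher in females by 1.33 on the log2 scale (SE 0.60, 95% confidence interval 0.07 to 2.58, edgeR adjusted p = 1), and in SI rats it differed by −0.10 (SE 0.59, edgeR adjusted p = 0.9999). No form of miR-153 was past the threshold by edgeR or by DESeq2 in either housing, and 1 of the 11 in GH and 4 of the 11 in SI rats had an unadjusted p under 0.05 by edgeR. Each of these 4 had no reads in one SI group. The 3p form without the last 3 bases and the 5p form that starts 1 base later had none in SI females, and a pair of rare 3p forms had none in SI males and were read in 1 SI female each. Their edgeR adjusted p-values were between 0.352 and 0.501. Over all isomiRs edgeR called 0 in GH rats (0.0%), with 171 (1.66%) at an unadjusted p under 0.05, and 1 in SI rats (0.00972%), with 839 (8.15%). DESeq2 called 23 of 62741 (0.0367%) and 52 of 22783 (0.228%). As a description, the housing difference of the reference form of miR-153-3p was −1.02 (SE 0.60) in males and −2.44 (SE 0.62) in females, and that of the reference form of miR-153-5p was −0.16 (SE 0.78) and −2.07 (SE 0.81).

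miR-448-3p, which could recognise many of the same sites through bases 2 to 7, was read in all 20 libraries, between 212 and 16879 times. It was at 216, 411, 260, 238, and 214 RPM in the GH males G16M, G19M, G18M, G20M, and G21M. The SI males I15M, I19M, I22M, and I17M held 164, 121, 179, and 118.0, all below the GH males, whereas I20M held 2575, the highest level of the 20 rats. In females the GH rats ran from 212 (G12F) to 927 (G17F) and the SI rats from 40.7 (I16F) to 273 (I10F). The SI against GH difference was 1.24 (SE 0.70, edgeR adjusted p = 0.293) in males and −1.25 (SE 0.70, edgeR adjusted p = 0.331) in females. The lowest SI female and the highest GH female of miR-448-3p were the same rats as for miR-153-3p. miR-448 is made from the gene of the serotonin 2C receptor, which the choroid plexus expresses strongly, and the choroid plexus markers miR-204-5p and miR-211-5p also had their highest sums in I20M (18200 RPM) and G17F (5229 RPM), against 835 to 4064 RPM in the other 18 rats. The part of this tissue in the levels of miR-448-3p was not tested. miR-153-3p did not share the peak in I20M, which had the lowest level of the SI males.

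The 5 miRNAs whose log2 levels were most like those of miR-153-3p over the 20 rats were miR-376b-5p (Pearson r = 0.96), miR-29a-3p (0.94), miR-24-3p (0.92), miR-29b-3p (0.91), and miR-338-3p (0.91). The median r of the other 499 miRNAs was 0.20. Without I16F the values of these 5 were between 0.88 and 0.93. Over deviations from the group means, which leave out the group differences, miR-376b-5p (0.93), miR-29a-3p (0.92), miR-29b-3p (0.91), miR-653-5p (0.90), and miR-136-5p (0.90) were the closest. miR-376b-5p belongs to the large imprinted miRNA cluster of chromosome 6, miR-29 is known for repressing collagen transcripts and rises as the brain matures, and miR-338-3p marks oligodendrocytes. Their own log2 differences of SI from GH in females were −1.43 for miR-376b-5p, −1.11 for miR-29a-3p, −1.35 for miR-24-3p, −1.36 for miR-29b-3p, and −2.30 for miR-338-3p. In males they were −0.85, −1.03, −1.02, −1.04, and −1.18 in the same order. The levels that ran most nearly opposite were those of miR-320-3p (r = −0.94), miR-382-5p (−0.89), and let-7d-5p (−0.88), with housing differences of 0.83, 0.62, and 0.70 in females and 0.62, 0.28, and 0.61 in males. All these miRNAs were picked by their correlation with miR-153-3p in the same rats, and miR-153-3p was singled out for its lower level after isolation. The signs of their housing differences are therefore not independent of the choice, and the values are descriptions.

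A list of 17 other miRNAs of neurons and neuroendocrine cells was set beside miR-153, and all of them were tested. miR-7a-5p, miR-7b, miR-34b-5p, and miR-34c-5p were in it because they, like miR-153, are known to repress alpha-synuclein, and miR-375-3p because it is abundant in cells with dense-core vesicles. None of the 17 passed edgeR's threshold between SI and GH rats in males or in females, against 4.0% and 0.4% of all miRNAs, and 3 and 6 of them had an unadjusted p under 0.05, as did 23.0% and 20.8% of all miRNAs. DESeq2, run without the count filter, called 2 of them in males and 5 in females, where it called 14.4% and 17.9% of the miRNAs that it tested. The median log2 difference of the list was 0.09 in males and −0.09 in females, beside −0.01 and −0.13 over all miRNAs tested. In females, miR-34c-5p had a difference of −1.31 (SE 0.46) and miR-138-5p, a synaptic miRNA that limits spine size, one of −0.83 (SE 0.28), with edgeR adjusted p-values of 0.112 and 0.101. miR-129-5p had 0.69 (SE 0.21, edgeR adjusted p = 0.0838). miR-7a-5p and miR-375-3p, which are often named together with miR-153 in secretory cells, had differences of 0.12 (SE 0.19) and 0.19 (SE 0.27) in males and of 0.04 (SE 0.19) and 0.15 (SE 0.27) in females.

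Other measures of the libraries moved with housing as well. Both markers of mural cells of blood vessels (miR-143-3p and miR-145-5p) were read in every library, and their sum was 9402 to 14298 RPM in GH males against 4050 to 6530 in SI males, and 9930 to 19740 in GH against 2050 to 13774 in SI females. The 2 endothelial markers (miR-126a-3p and miR-126a-5p) summed to 880 to 1231 in GH and 259 to 698 in SI males, and to 947 to 2234 and 79.9 to 1096 in females, with 1 SI female lacking reads of one of them. The sum of the 3 blood cell markers was higher after isolation in males, at 1005 to 1358 in GH and 1490 to 3117 in SI rats. In females it was 792 to 1456 in GH and 1405 to 4036 in SI rats, and these ranges overlapped. At least 1 of the 3 markers had no reads in 4 of 5 libraries of each group except GH females, where this was so in 1. The sum of the 3 neuronal markers overlapped between housing groups in both sexes. Its medians were 141312 in GH and 143682 in SI males and 119740 in GH and 145771 in SI females. In males its members differed in direction. The SI against GH log2 difference was −0.62 (SE 0.24, edgeR adjusted p = 0.120) for miR-124-3p, 0.05 for miR-9a-5p, and 0.13 for miR-128-3p. In females these were −0.19, 0.14, and 0.33 in the same order. The sum of the 4 oligodendrocyte markers had medians of 4317 and 7077 RPM in GH and SI males and 4796 and 4432 in GH and SI females. At least 1 of the 4 had no reads in 1 SI male and 2 SI female libraries. The sum does not stand for each member. The SI against GH log2 difference of miR-338-3p was −1.18 in males and −2.30 in females, whereas the paper lists miR-338-5p as higher after isolation in both sexes. The 3 markers of microglia and leukocytes summed to at most 51.1 RPM in any library. The part of these cell types in the levels of miR-153 was not tested.

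miR-153-3p is poor in G and C, with 36.4% against a median of 47.8% over the miRNAs tested, and 9.91% of these had a lower share. miR-153-5p has 39.1%. For each library a slope on GC content was fitted to the deviations of log2 levels from each miRNA's mean over the 20 libraries. Of the 454 miRNAs tested that had a sequence in the reference (90.8%), both arms of miR-153 were left out of this fit. The slope ranged from −0.40 per 10 percentage points in G16F to 0.80 in I16F, the rats with the second highest and the lowest level of miR-153-3p. The group means of this slope were −0.05 ± 0.13 in GH males, 0.03 ± 0.22 in SI males, −0.13 ± 0.20 in GH females, and 0.15 ± 0.38 in SI females (SD, n = 5). Across the 20 rats the slope had a Pearson r of −0.73 with the level of miR-153-3p, and of −0.46 without I16F. With the slope of each library taken out, a setting added after the data were seen, the housing difference of miR-153-3p was −0.90 (SE 0.40) in males and −2.02 (SE 0.41) in females, and the difference between GH females and GH males was 0.92 (SE 0.40, edgeR adjusted p = 0.999).

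**Figure D4:**
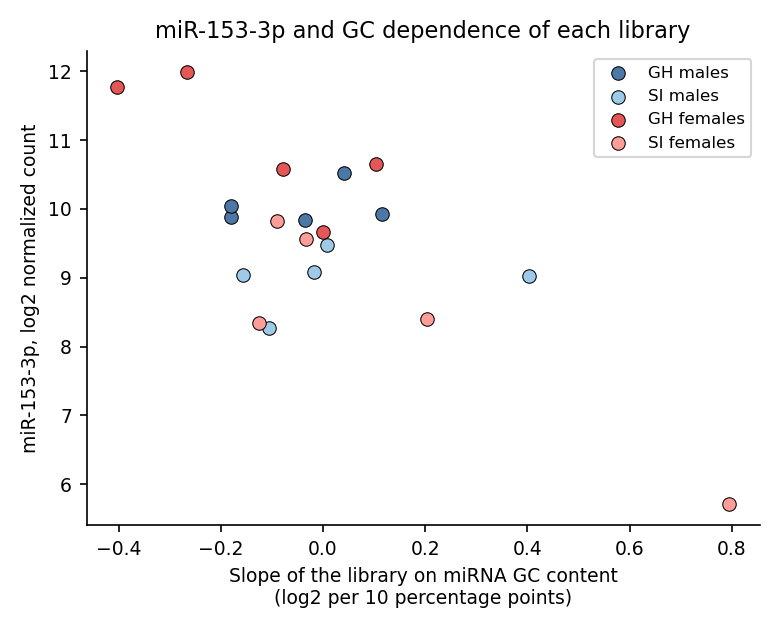
Log2 normalized count of miR-153-3p against the slope of each library on the GC content of its miRNAs (log2 change per 10 percentage points of GC), 1 point per rat, coloured by group. I16F lies alone at 0.80 with the lowest level, and G16F and G17F, the highest, have the most negative slopes.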

How the data were processed

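One small RNA library was made per rat, for 20 rats, from 215 ng of total RNA of the adBNST with 22 cycles of PCR. The authors trimmed reads with cutadapt, collapsed identical reads, and aligned them with seqbuster to the rat hairpins of miRBase v21 (tool versions are not given in the sources used here). They deposited, for each library, raw counts of each distinct sequence, with its mismatch, additions, and end changes. Sequences read once are absent from the tables. Here the counts were summed per miRNA and per isomiR, a read of several miRNAs being counted for each. Features with 10 or more counts in 5 or more libraries (500 miRNAs, 10290 isomiRs) were fitted in 1 model of 4 groups with edgeR 4.0.16 (TMM, quasi-likelihood test) in R 4.3.3, with Benjamini-Hochberg adjustment over all features and a threshold of 0.05. DESeq2 1.42.0, the tool of the authors, was an alternative. Single values were compared with exact permutation tests (scipy 1.17.1), and the hairpin was folded with ViennaRNA 2.7.2. Reads carry no molecular identifiers. The floor given for the library without reads of the 5p arm covers counting error only, and not the absent sequences read once. The confidence intervals come from the edgeR fit and include the spread between rats. For SI and GH rats the labels give 1 animal per library. On simulated counts of GH females against GH males, in which 200 of 500 miRNAs differed, edgeR found 46.4% of log2 differences of 1 and 67.7% of those of 2. Where 200 of 10290 isomiRs differed, it found 0% and 17.9%. The adjusted threshold is easier to pass when many features differ. The shares for miRNAs can therefore overstate what edgeR would find in the data, where it called 0 of 500 in this contrast.

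The groups followed the labels. The members, the gene lists, the rule for the miRNAs named (the highest and lowest correlations with miR-153-3p, and forms with at least 2% of the reads of their arm), and the alternatives were chosen with earlier results of these data known. The alternatives were other size factors, DESeq2 without the count filter, edgeR without it, only the groups compared, reads assigned to 1 miRNA alone, reads free of mismatches, a pseudocount of 0.5 in place of 1 in the arm ratio, each rat left out, the I17 libraries exchanged, and the animal number as a block. A correction for GC content, and the exchange together with leaving out I16F, were added after the data were seen. Reads outside miRNAs were not analysed here.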

Additional observations from a re-analysis of the deposited data

Results flagged for a closer look

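Values of miR-153 were examined for a rat far from the other 4 of its group in 32 sets of 5 rats, and 5 such values were found. For normally distributed values the rule flags about 1 in 20 sets. That rate does not hold for shares that are mostly near 0, as those of added nucleotides were, so no excess over chance is read from the count. The SI female I16F had a log2 normalized count of 0 for miR-153-5p, where the nearest SI female had 4.78, and it also had the fewest reads of miR-153-3p. The GH male G20M had a log2 ratio of the 5p to the 3p arm of −2.31, where the nearest GH male had −3.83. The share of miR-153-3p reads with added nucleotides was 9.49% in the SI male I19M against at most 0.401% in the other SI males. It was 7.85% in the GH female G15F, where the next had 3.06%, and 3.85% in the SI female I10F, where the next had 0.244%.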

How the results depend on the processing

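The direction of the housing difference of miR-153-3p was negative in both sexes under every alternative run. With 1 rat left out it lay between −1.18 and −0.90 in males and between −2.62 and −1.98 in females, the latter without I16F, and that of miR-153-5p from −0.26 to 0.55 in males and −2.02 to −1.36 in females. The labels do not say whether rats of the same number are paired. Their deviations from group means were not alike (correlations from −0.30 to 0.09), which cannot show whether they share a litter or cage. In females the shared numbers were 12, 16, and 17. Their GH rats G12F, G16F, and G17F had 239, 548, and 634 RPM of miR-153-3p. The SI rats I12F, I16F, and I17F had 50.5, 8.06, and 52.6. This subset thus held the highest GH females and the lowest SI females. Over it the difference of miR-153-3p was −3.88 with the replicate block and −3.63 without it, where the fit over all rats gave −2.28. That of miR-153-5p in females was −3.23 with the block and −2.09 without it, where the fit over all rats gave −1.71. The cause of these shifts was not tested. The sex difference of miR-153-3p in SI rats ranged from −0.43 to 0.21 with 1 rat left out, changed sign in 4 of these 10 fits, and was 0.080 with the I17 libraries exchanged and 0.40 with I16F left out as well. In GH rats it stayed between 0.80 and 1.32. With the I17 libraries exchanged, the sex difference in SI rats was −4.73 percentage points for the reference form, 2.34 for changed 3′ ends, and 1.70 for mismatches, and with reads without a mismatch that of the reference form in GH rats was 0.26. With 1 rat left out, the sex differences ranged in GH rats from −1.76 to 3.59 for the reference form and −1.41 to 1.56 for additions, and in SI rats from −6.02 to 12.9 for the reference form, −11.5 to 7.35 for changed 3′ ends, −1.17 to 0.69 for changed 5′ ends, and −1.92 to 0.72 for additions. The cause was not tested. DESeq2 without the count filter, so that tool and filter changed together, called 2 and 5 members of the neuronal list in males and females, where edgeR called 0, and 52 and 67 miRNAs in all, where edgeR called 20 and 2. No sex difference of miR-153 passed the threshold under any alternative run. The few reads of the 5p arm, and the 42 reads of the 3p arm in I16F, limit the shares of their forms.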
